A study of Pyrus calleryana with 9 samples.

Results

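The genes described here encode enzymes that cut the mannan, xylan and glucan chains of plant cell walls, or trim sugars from them, in seeds of callery pear (Pyrus calleryana). A gene was taken as a member where the name of its Swissprot match in the deposited table holds endo-1,4-beta-mannosidase, beta-xylosidase, arabinofuranosidase, beta-galactosidase, glucan endo-1,3-beta-glucosidase, endoglucanase or endo-1,4-beta-xylanase. The rule used no measured value and found 221 of the 59552 genes, of which 35429 have a Swissprot match. By name, 110 were 1,3-beta-glucanases, 41 endoglucanases, 34 beta-galactosidases, 14 mannanases, 8 xylanases, 6 beta-xylosidases and 1 an arabinofuranosidase. The last 7 were plasmodesmata callose-binding proteins (PDCB), which carry an alternative name of glucanase type but are binding proteins, so they are counted in the totals over all members and described apart from the enzymes. For 5 of the 8 xylanases the best match was RsgI6, an anti-sigma factor of bacteria with xylanase as its alternative name, and all 8 carry the glycosyl hydrolase family 10 domain of xylanases.

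Seeds were taken from mature fruits of garden-grown trees, left in water for 24 h and then kept at 4 °C on wet filter paper, a treatment called cold stratification that breaks seed dormancy. RNA was sequenced from whole seeds at 0 d (imbibed, without cold), 20 d and 50 d of stratification, with replicates A, B and C per stage, each a pool of seeds. All groups share the same species and the imbibition, and no stage was kept warm after imbibition, so days in the cold and days since imbibition cannot be told apart. Whole seeds hold embryo, endosperm and seed coat together, and fewer cells of a type and less RNA per cell cannot be told apart.

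Plant cell walls are meshes of cellulose held together by other polysaccharides. Endo-acting hydrolases cut inside a chain, exo-acting enzymes remove sugars from chain ends or side chains, and both kinds are needed to take a polymer apart. Mannans strengthen the walls of the endosperm, and mannanases and 1,3-beta-glucanases are known from tomato, tobacco and Arabidopsis as enzymes of the endosperm that covers the root tip, where walls weaken before the radicle emerges. Callose, a 1,3-beta-glucan, lines plasmodesmata, the channels between cells, and 1,3-beta-glucanases remove it. In poplar, chilling of dormant buds is known to induce 1,3-beta-glucanases as these channels reopen.

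Libraries held 13893019 to 16228340 counts, and members took 0.105 to 0.139% of them at 0 d, 0.189 to 0.264% at 20 d and 0.188 to 0.315% at 50 d. Replicates of 0 d had Pearson correlations of log2 CPM (counts scaled to library size) of 0.954 to 0.967 across genes. At 20 d, A and C reached 0.975 but B gave 0.883 and 0.892 with them, and at 50 d, A and B reached 0.962 but C gave 0.900 and 0.924. Replicate B of 20 d and replicate C of 50 d therefore stood apart. Both were low for many members: B was the lowest 20 d library in 21 of the 28 members called higher at 20 d than at 0 d (75.0%, against 63.7% of all genes so called), and C the lowest 50 d library in 40 of the 57 called higher at 50 d than at 0 d (70.2%, against 50.1%). Genes named as seed storage proteins or as oleosins, which are oil-body proteins, formed a group that marks seed tissue. Their sum was 14680 to 27690 FPKM (fragments scaled to transcript length and library size) at 0 d. It was 14770 to 18700 at 20 d and 2465 to 5880 at 50 d. Chr7.g32129, a match to Oleosin 1, held 47.8% of the sum over all libraries. Of 21 tested genes of the group, 1 was called higher in 50 d seeds than in 0 d seeds and 9 were called lower. Genes of green tissue summed to 37.2 to 52.1 FPKM at 0 d, 43.7 to 64.7 at 20 d and 158 to 263 at 50 d, with 12 of 18 higher and 0 lower (also 0 lower by DESeq2, by limma or at an unadjusted edgeR p under 0.05). Genes named for the seed coat summed to 215 to 233 FPKM at 0 d, 96.8 to 109 at 20 d and 153 to 221 at 50 d, with 8 of 20 higher and 6 lower. The part of these marker groups in the members' changes was not tested.

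Members rose more often than they fell. A gene is said to be called, or to have risen or fallen, where the adjusted p was at most 0.01, the log2 fold change at least 1 in size and 1 or both stages had a mean FPKM of 1 or more, by edgeR's quasi-likelihood test with Benjamini-Hochberg adjustment over the 28339 genes tested. Of the 221 members 114 had enough counts to be tested, 71 had counts too low for the test and 36 had no count in any library. Between 20 d and 0 d, 28 members rose and 0 fell, where 7.88% of all tested genes rose and 4.52% fell. At an unadjusted edgeR p under 0.05, 12 members were lower at 20 d, and of these falls DESeq2 called 2 and limma 0. Between 50 d and 20 d, 10 rose and 0 fell, where 1.4% of all tested genes rose and 0.254% fell. Here 13 were lower at 50 d at an unadjusted edgeR p under 0.05, and DESeq2 called 2 and limma 0. Between 50 d and 0 d, 57 rose and 6 fell, 63 in all, where 15.6% of all tested genes rose and 11% fell, or 26.6% together. In all, 64 members were called in at least 1 of the 3 comparisons, where 27.8% of all tested genes were. Without the callose-binding proteins, 107 members were tested, of which 24 rose at 20 d over 0 d, 10 rose at 50 d over 20 d, and 53 rose and 5 fell at 50 d over 0 d.

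Several of these counts changed when a single library was left out, and so did the share of all tested genes called. A call is said to be lost without a library where it fails its limits once that library alone is left out, and where several are listed each was left out in turn. Between 20 d and 0 d, 15 members were called without 0 d A, 18 without 0 d B, 18 without 0 d C and 37 without 20 d B. Of all tested genes 12.4% were called with every library, and 4.47%, 4.85%, 4.21% and 23.7% in these fits. Between 50 d and 20 d, 1 was called without 20 d A or without 20 d C, 2 without 0 d A, 3 without 0 d B, without 50 d A or without 50 d B, and 5 without 0 d C. For this pair of stages 1.66% of all tested genes were called with every library, and 0.255% to 1.01% in these fits. A fit of the 6 libraries of these stages alone called 0 members and 0 of all genes, with 42 members at an unadjusted edgeR p under 0.05. Between 50 d and 0 d, 41 were called without 0 d A and 57 without 50 d C, where 17.2% and 26.3% of all tested genes were called, against 26.6% with every library. Calls that held without each library in turn numbered 12 of 28 at 20 d over 0 d, 1 of 10 at 50 d over 20 d and 40 of 63 at 50 d over 0 d.

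The median log2 fold change of the tested members was 1.19 between 20 d and 0 d, 0.39 between 50 d and 20 d and 2.21 between 50 d and 0 d. Over all tested genes these medians were 0.15, -0.06 and 0.16. With the members that had no count in 1 of the stages set at their bound (1, 2 and 3 genes), the members' medians stayed at 1.19, 0.39 and 2.21. Each bound still lay above the median of its comparison, so the replacement could not move it. Of the tested members, 46 had a mean FPKM under 1 at 0 d and of at least 1 at 50 d. Between these stages they met the FPKM limit of a call through 50 d alone. How many members passed the count filter only through a later stage was not counted. The counts above describe the tested members and not all 221. Among the 52 members with a mean FPKM of at least 1 at both 50 d and 0 d, 21 rose and 6 fell, against 11.3% and 12.1% of 21331 genes chosen in that way. In the same manner 14 of 53 members rose between 20 d and 0 d, against 6.5% of 21522 genes (5.2% fell), and 2 of 77 between 50 d and 20 d, against 0.746% of 22923 (0.244% fell). The comparisons share libraries with each other, so their counts are not independent. Replicates did not overlap and were higher at 50 d than at 0 d in 77 tested members, and lower in 14, where 30.5% and 25.1% of all tested genes behaved so.

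**Figure D1:**
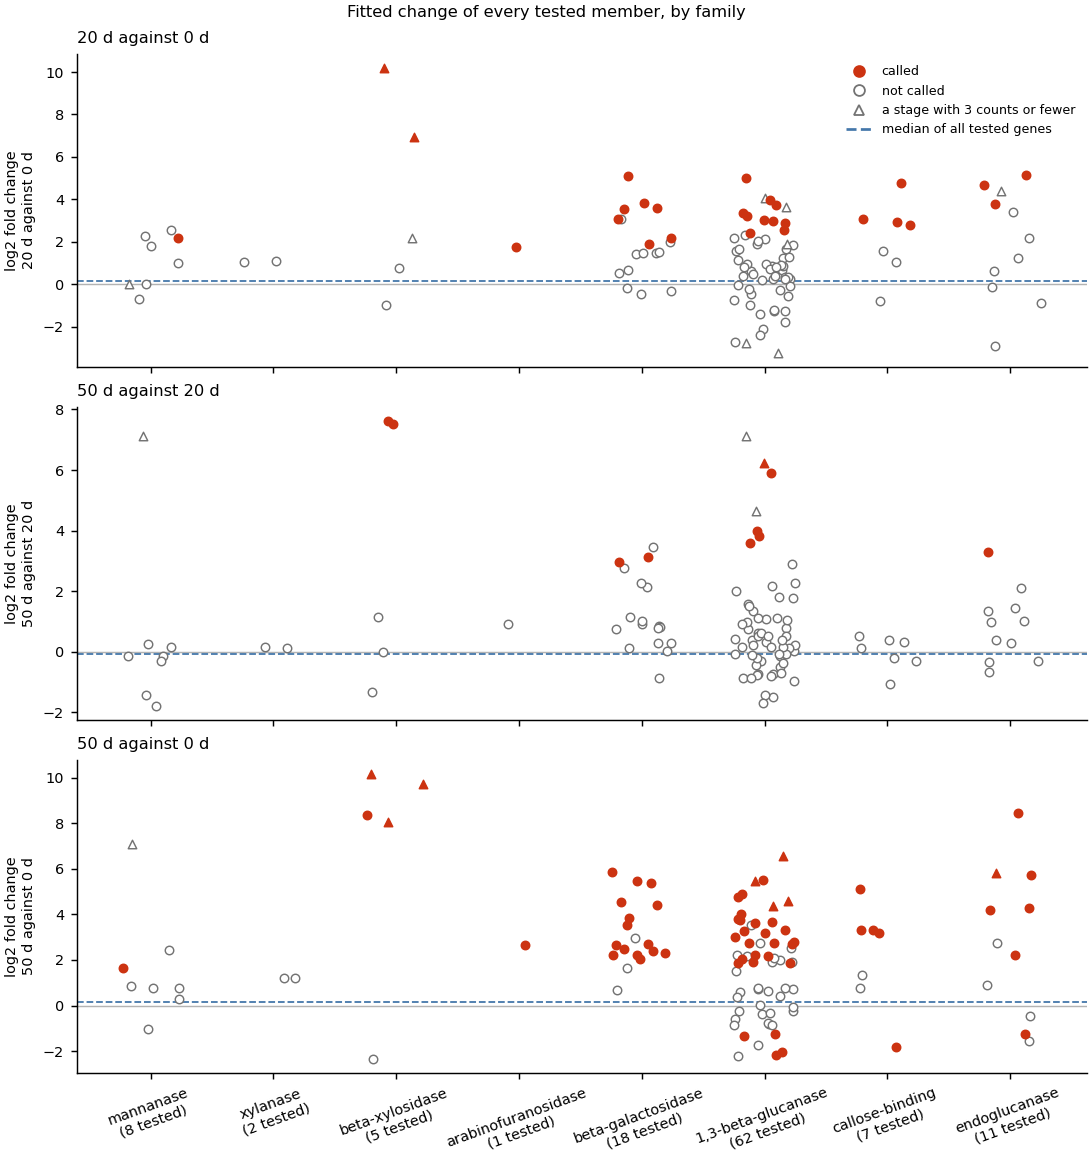
Log2 fold change (y axis) of each of the 114 tested members in 3 comparisons (panels), by family (x axis). Filled red points were called, open points were not, triangles mark members with 3 counts or fewer in 1 of the stages, and the dashed line is the median of all tested genes. The 28 and 10 calls of the upper panels are all above 0, and 6 of the 63 calls in the lowest panel are below 0.

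Mannanases, which cut the backbone of mannan, were measured at low levels. Of all tested genes 12.4% were called at 20 d and 26.6% at 50 d over 0 d. The 8 tested mannanases gave 1 call at 20 d and 1 at 50 d. The highest at 20 d was Chr15.g04733, a match to mannanase 7 (chromosome 15, bases 1229642 to 1232718, minus strand of the Pyrus betuleafolia genome to which the authors aligned the reads). Its FPKM was 1.71, 4.25 and 4.50 at 0 d, 21.2, 13.5 and 10.9 at 20 d and 4.90, 6.05 and 6.36 at 50 d in replicates A, B and C. All 20 d libraries lay above all others. The rise at 20 d over 0 d was called, with a log2 fold change of 2.19 ± 0.42 (SE, edgeR adjusted p = 0.00331). At 50 d the log2 fold change was -1.42 relative to 20 d (adjusted p = 0.0654) and 0.78 relative to 0 d (edgeR adjusted p = 0.14), neither of them called. It was the only one of the 64 called members called at 20 d and not at 50 d against 0 d.

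Chr17.g27303, a match to mannanase 2, had 0.628, 1.22 and 0.669 FPKM at 0 d, 3.61, 2.36 and 2.40 at 20 d and 2.01, 3.69 and 2.02 at 50 d. It rose at 50 d over 0 d by 1.66 ± 0.44 on the log2 scale (edgeR adjusted p = 0.00981), just inside the limit. Chr9.g44705, also matched to mannanase 2, had 3.30, 3.74 and 3.59 FPKM at 0 d, 8.33, 5.13 and 6.88 at 20 d and 7.21, 7.08 and 4.42 at 50 d. Its later libraries were all above those of 0 d, but its log2 fold change at 50 d over 0 d, 0.88 ± 0.33 with an edgeR adjusted p of 0.0453, was not called. Chr4.g40233, matched to mannanase 6, had no count in any library of 0 d or 20 d and 55 counts over those of 50 d. Against the limit of 3 counts that 0 allows, its level was at least 16.1-fold higher at 50 d than at 0 d (edgeR adjusted p = 0.00329), but it stayed under a mean of 1 FPKM (0.404, 1.03 and 0.720) and was not called.

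The other 4 tested mannanases were matches to mannanase 7 with log2 fold changes at 50 d over 0 d between -1.01 and 2.44, none called. Summed over the family, FPKM was 11.2 to 13.2 at 0 d, 23.7 to 36.0 at 20 d and 18.2 to 21.0 at 50 d, so the 3 stages did not overlap and 20 d was the highest. Chr15.g04733, itself highest at 20 d, held 40.4% of the sum over all libraries, so the family sum follows this gene in large part. The call of Chr15.g04733 was lost without 0 d A, 0 d B, 0 d C and 20 d A (largest edgeR adjusted p 0.0159), and that of Chr17.g27303 without 0 d A, 0 d C, 20 d A, 20 d C, 50 d A, 50 d B and 50 d C (largest edgeR adjusted p 0.0535).

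Between xylanases and beta-xylosidases, all calls were of beta-xylosidases. Of the 8 xylanases, which cut the xylan backbone, 2 were tested and 0 were called in any comparison by edgeR, DESeq2 or limma, with 1 higher at 50 d over 0 d at an unadjusted edgeR p under 0.05. The higher, Chr8.g54256, had 1.51, 3.53 and 1.67 FPKM at 0 d, 6.10, 1.43 and 5.83 at 20 d and 6.73, 5.13 and 3.13 at 50 d, with a log2 fold change at 50 d over 0 d of 1.22 ± 0.54 (edgeR adjusted p = 0.0878). Its stages overlapped, and the 20 d and 50 d values were lowest in the libraries that stood apart, B and C.

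Beta-xylosidases remove xylose from the ends of xylan fragments, and several of them also remove arabinose. Of 5 tested, 4 rose at 50 d over 0 d, and all 4 were at or near 0 in imbibed seeds. Of all tested genes 15.6% rose between these stages. Chr15.g00288, a match to beta-xylosidase/alpha-L-arabinofuranosidase 2 (chromosome 15, bases 43256905 to 43261376, plus strand), had no count at 0 d, 5.61, 1.21 and 5.19 FPKM at 20 d and 6.48, 3.95 and 1.48 at 50 d. It was at least 141-fold higher at 20 d and at least 143-fold higher at 50 d than at 0 d (edgeR adjusted p = 0.000946 and 0.000312). Chr8.g56022, a match to beta-xylosidase/alpha-L-arabinofuranosidase 1, had 1 count at 0 d, with 1.14, 0.864 and 2.06 FPKM at 20 d and 3.97, 3.31 and 1.68 at 50 d. Its ratio to 0 d was 167 at 20 d (95% counting interval 29.6 to 6635) and 374 at 50 d (66.8 to 14810.0), with edgeR adjusted p of 0.000384 and 4.33e-05. Both genes were thus detected by 20 d, and neither was called between 50 d and 20 d (log2 fold changes of -0.02 and 1.13).

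A pair of matches to Beta-D-xylosidase 1, which in Arabidopsis trims arabinose and xylose from wall polymers, appeared later. Chr16.g29999 had 0, 0.0929 and 0 FPKM at 0 d, 0.119, 0.0269 and 0.0243 at 20 d and 22.9, 11.5 and 1.36 at 50 d. Chr13.g23114 had 0.0330, 0 and 0 FPKM at 0 d, 0, 0 and 0.159 at 20 d and 25.5, 2.09 and 4.24 at 50 d. Every 50 d library lay above every earlier one in both genes, but the 50 d libraries themselves were far apart, with A the highest. Between 50 d and 20 d the log2 fold changes were 7.61 ± 1.15 for Chr16.g29999 (edgeR adjusted p = 0.00404) and 7.52 ± 1.24 for Chr13.g23114 (edgeR adjusted p = 0.00581). Over 0 d, Chr16.g29999 rose on the log2 scale by 8.37 ± 1.22 (edgeR adjusted p = 0.000306). Chr13.g23114 had 1422 counts at 50 d against 1 at 0 d, a ratio of 1246 with a 95% counting interval of 223 to 49250.0 (edgeR adjusted p = 0.00042). The calls against 20 d were lost for Chr16.g29999 without 0 d A, 0 d B, 20 d A, 20 d C and 50 d B (largest edgeR adjusted p 0.0235) and for Chr13.g23114 without 0 d A, 0 d B, 0 d C, 20 d A, 20 d C and 50 d A (largest edgeR adjusted p 0.0244).

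Chr5.g06314, the remaining tested beta-xylosidase by name, is only 348 bases long, and no hydrolase domain is given for it. It lay the other way, at 4.43, 8.41 and 2.95 FPKM at 0 d, 0.367, 5.18 and 2.06 at 20 d and 0.755, 0.857 and 1.41 at 50 d. All 50 d libraries were below those of 0 d, with a log2 fold change of -2.33 ± 0.82 that was not called (edgeR adjusted p = 0.0374). The single arabinofuranosidase, Chr12.g36941, matches alpha-L-arabinofuranosidase 1, which takes arabinose from arabinan and arabinoxylan. Its FPKM was 2.61, 2.20 and 1.78 at 0 d, 7.39, 4.96 and 8.57 at 20 d and 12.4, 15.4 and 11.8 at 50 d. No stage overlapped with another, and it rose on the log2 scale by 1.74 ± 0.32 at 20 d and by 2.65 ± 0.32 at 50 d over 0 d (edgeR adjusted p = 0.00271 and 0.00011). The first of these calls was lost without 0 d A, 0 d B, 0 d C, 20 d A and 20 d C (largest edgeR adjusted p 0.0225). Chr12.g36941 overlaps a gene on the opposite strand by 218 bases, and the sources used here do not say whether counting used strand.

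**Figure D2:**
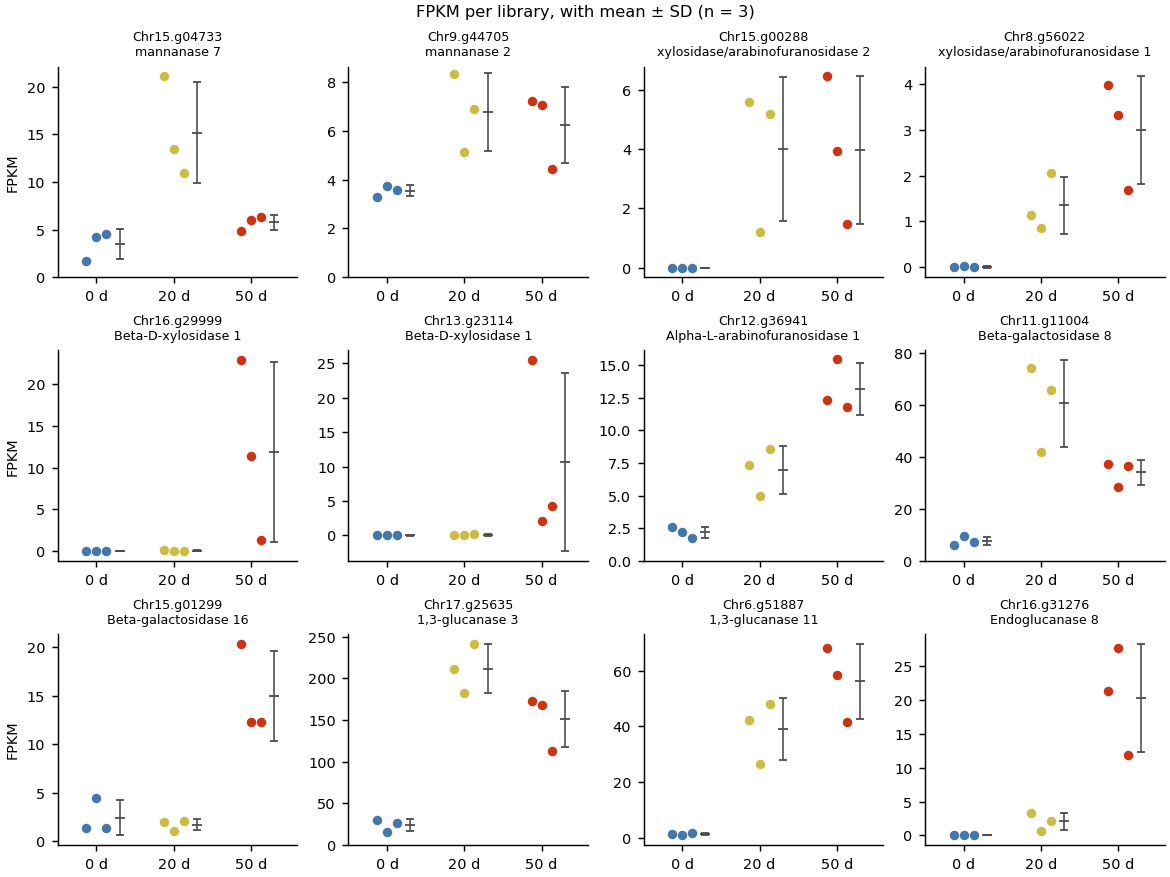
FPKM (y axis, linear, with its own range in each panel) of 12 members at 0 d, 20 d and 50 d (x axis), where each point is a library and the bar beside it is the mean ± SD of 3. Chr15.g04733 is highest at 20 d, Chr15.g00288 and Chr8.g56022 are above 0 d by 20 d, and Chr16.g29999, Chr13.g23114 and Chr15.g01299 have all their highest libraries at 50 d.

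Beta-galactosidases, which remove galactose from the galactan side chains of pectin, from arabinogalactan proteins and, for BGAL10 of Arabidopsis, from xyloglucan, had the largest share of risers among the larger families. Of 18 tested, 15 rose and 0 fell between 50 d and 0 d, where 15.6% of all tested genes rose and 11% fell. All 18 fitted changes were positive. Between 20 d and 0 d 7 rose, against 7.88% of all tested genes, and between 50 d and 20 d 2 rose, against 1.4%. Another 16 genes of the family were not tested, 11 of them without any count. Their summed FPKM was 36.1 to 48.3 at 0 d, 112 to 251 at 20 d and 184 to 332 at 50 d. The lowest library of 20 d was B, and that of 50 d was C.

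Chr11.g11004, a match to beta-galactosidase 8 (chromosome 11, bases 11684570 to 11691932, plus strand) and the highest of the family at 20 d, had 6.24, 9.46 and 7.32 FPKM at 0 d, 74.2, 42.0 and 66.0 at 20 d and 37.3, 28.3 and 36.6 at 50 d. It was higher in every library of 20 d than in any other library and rose on the log2 scale by 3.06 ± 0.33 at 20 d and 2.21 ± 0.32 at 50 d over 0 d (edgeR adjusted p = 0.00024 and 0.000319). Between 50 d and 20 d its log2 fold change of -0.85 ± 0.31 was not called (edgeR adjusted p = 0.15). Chr3.g19881, a second match to beta-galactosidase 8 with a higher mean than Chr11.g11004 at 0 d and 50 d, had 10.5, 16.3 and 9.19 FPKM at 0 d, 52.9, 29.8 and 45.0 at 20 d and 47.5, 51.3 and 42.3 at 50 d. It rose on the log2 scale by 1.90 ± 0.34 at 20 d (edgeR adjusted p = 0.0024) and by 2.03 ± 0.34 at 50 d (edgeR adjusted p = 0.000671), with 20 d and 50 d overlapping. Both calls of Chr11.g11004 held without each of the 9 libraries in turn, as did the 50 d call of Chr3.g19881, while its 20 d call was lost without 0 d A, 0 d C and 20 d A (largest edgeR adjusted p 0.0206).

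Chr2.g43858, matched to an unnumbered beta-galactosidase, carries domains of glycosyl hydrolase family 2, where Chr11.g11004 and Chr3.g19881 carry that of family 35. Whether its product acts on cell walls was not tested. Chr2.g43858 had 2.20, 2.18 and 2.47 FPKM at 0 d, 32.5, 4.73 and 38.5 at 20 d and 41.1, 39.5 and 13.1 at 50 d. Its log2 rises of 3.54 ± 0.69 at 20 d and 3.84 ± 0.70 at 50 d (edgeR adjusted p = 0.00378 and 0.00114) came with a wide spread, since 20 d B and 50 d C were far below their fellow replicates. The call at 20 d was lost without 0 d A, 0 d B, 0 d C, 20 d A and 20 d C (largest edgeR adjusted p 0.0301), and that at 50 d without 0 d A (largest edgeR adjusted p 0.0122). Chr15.g03695 and Chr15.g03696 lie on the same strand with 28 bases between them and match beta-galactosidases 10 and 3. The only domain given for Chr15.g03695, of 1929 bases, is that of glycosyl hydrolase family 35. For Chr15.g03696, of 600 bases, it is a galactose binding lectin domain, without a hydrolase domain. They are counted here as separate members, and whether they are parts of a single gene was not tested. Chr15.g03696 had 0.811, 1.77 and 1.96 FPKM at 0 d, 26.0, 8.89 and 26.7 at 20 d and 43.5, 40.4 and 20.3 at 50 d, and rose on the log2 scale by 3.81 ± 0.55 and 4.56 ± 0.56 over 0 d (edgeR adjusted p = 0.000896 and 0.000115). Chr15.g03695 had 0.252, 0.517 and 0.228 FPKM at 0 d, 17.5, 3.18 and 13.1 at 20 d and 23.7, 12.5 and 4.73 at 50 d, and rose on the log2 scale by 5.11 ± 0.79 and 5.38 ± 0.80 (edgeR adjusted p = 0.00121 and 0.000335). In both neighbours every later library was above those of 0 d, with B the lowest at 20 d and C the lowest at 50 d. The 20 d call of Chr15.g03695 was lost without 0 d A and 0 d C (largest edgeR adjusted p 0.0139).

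A second group of beta-galactosidases rose late. Chr15.g01299, a match to beta-galactosidase 16, had 1.34, 4.47 and 1.37 FPKM at 0 d, 1.96, 1.07 and 2.05 at 20 d and 20.3, 12.3 and 12.3 at 50 d. Its 50 d libraries were above all others while 0 d and 20 d overlapped, and it rose on the log2 scale by 3.13 ± 0.52 over 20 d (edgeR adjusted p = 0.00613) and by 2.69 ± 0.51 over 0 d (edgeR adjusted p = 0.00154). Chr8.g53733, matched to beta-galactosidase 3, had 0.375, 0.412 and 0.291 FPKM at 0 d, 0.296, 0.167 and 0.366 at 20 d and 3.65, 1.83 and 1.12 at 50 d. It rose on the log2 scale by 2.97 ± 0.55 over 20 d (edgeR adjusted p = 0.00989) and by 2.67 ± 0.54 over 0 d (edgeR adjusted p = 0.00216), and it overlaps 2 genes on the opposite strand, which held 53 and 18 counts against its own 435. The calls over 20 d were lost for Chr15.g01299 without 0 d A, 0 d C, 20 d A, 20 d C, 50 d A and 50 d B (largest edgeR adjusted p 0.0271) and for Chr8.g53733 without 0 d A, 0 d B, 0 d C, 20 d A, 20 d B, 20 d C, 50 d A and 50 d B (largest edgeR adjusted p 0.0442). Over 0 d they were lost for Chr15.g01299 without 0 d A and 0 d C (largest edgeR adjusted p 0.0127) and for Chr8.g53733 without 0 d A, 0 d C and 50 d A (largest edgeR adjusted p 0.0155).

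Chr2.g41728, a beta-galactosidase without a number, had 1.47, 1.90 and 1.83 FPKM at 0 d, 5.19, 5.25 and 2.80 at 20 d and 30.9, 13.7 and 13.9 at 50 d. Each stage lay above the one before, and the log2 rise over 0 d reached 3.55 ± 0.43 at 50 d (edgeR adjusted p = 0.000104), while the log2 change over 20 d, 2.13 ± 0.40, had an edgeR adjusted p of 0.0111 and was not called. Chr13.g21261, matched to beta-galactosidase 9, had 4.94, 3.92 and 4.98 FPKM at 0 d, 17.4, 3.43 and 16.9 at 20 d and 30.4, 20.9 and 13.5 at 50 d. Apart from 20 d B, which was below the 0 d libraries, all its later libraries were above those of 0 d, and it rose on the log2 scale by 2.30 ± 0.54 at 50 d (edgeR adjusted p = 0.00504). That call was lost without 0 d A, 0 d B, 0 d C, 50 d A and 50 d B (largest edgeR adjusted p 0.0291). The largest rise of the family over 0 d was that of Chr2.g42273, a match to beta-galactosidase 3 with mean FPKM of 0.124 ± 0.0668 at 0 d, 1.04 ± 0.739 at 20 d and 7.10 ± 5.34 at 50 d (SD, n = 3). The other 5 risers had log2 fold changes at 50 d over 0 d between 2.21 and 5.45, with mean FPKM at 50 d between 1.56 and 8.43.

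The 1,3-beta-glucanases, which cut callose and related glucans, were the largest family. Of 62 tested, 26 rose and 4 fell between 50 d and 0 d, where 15.6% of all tested genes rose and 11% fell. Between 20 d and 0 d 10 rose and 0 fell, against 7.88% and 4.52% of all tested genes. Between 50 d and 20 d 5 rose and 0 fell, against 1.4% and 0.254%. In each of the last 2 comparisons 9 were lower at an unadjusted edgeR p under 0.05, and DESeq2 called 2 of those falls and limma 0. Their summed FPKM was 440 to 727 at 0 d, 707 to 793 at 20 d and 524 to 683 at 50 d, so 50 d overlapped with 0 d. Chr11.g11412, which fell, held 20.8% of the sum over all libraries.

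Chr17.g25635, matched to glucan endo-1,3-beta-glucosidase 3 (chromosome 17, bases 6932104 to 6935408, plus strand), was the most abundant riser. It had 29.5, 15.8 and 26.8 FPKM at 0 d, 211, 183 and 242 at 20 d and 173, 168 and 113 at 50 d. No stage overlapped with another, with 20 d the highest. It rose on the log2 scale by 3.23 ± 0.35 at 20 d, or 9.36-fold, and by 2.73 ± 0.35 at 50 d, or 6.63-fold, over 0 d (edgeR adjusted p = 0.000242 and 0.000133). Chr6.g51887, matched to glucan endo-1,3-beta-glucosidase 11 (chromosome 6, bases 16553268 to 16556226, minus strand), had 1.25, 0.856 and 1.77 FPKM at 0 d, 42.2, 26.5 and 48.1 at 20 d and 68.2, 58.4 and 41.6 at 50 d. It rose on the log2 scale by 4.99 ± 0.42 at 20 d, or 31.9-fold, and by 5.51 ± 0.43 at 50 d, or 45.5-fold (edgeR adjusted p = 8.07e-05 and 1.44e-05). These 4 calls held without each library in turn.

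Chr4.g38240 is named as a glucan endo-1,3-beta-glucosidase without a number, but the only domain the table gives it is that of the thaumatin family, proteins known from plant defence, and not the hydrolase domain. It had 1.36, 2.29 and 1.97 FPKM at 0 d, 2.50, 2.41 and 10.8 at 20 d and 11.7, 29.2 and 12.8 at 50 d. All 50 d libraries were above all earlier ones, and the log2 rise over 0 d was 3.30 ± 0.64 (edgeR adjusted p = 0.00177), a call lost without 0 d A and 0 d C (largest edgeR adjusted p 0.0165). Chr7.g31657, also without a number, had 0.140, 0.215 and 0 FPKM at 0 d, 0.257, 0.166 and 0.262 at 20 d and 3.65, 3.84 and 2.38 at 50 d. Its calls were at 50 d alone, with rises on the log2 scale by 3.80 ± 0.67 over 20 d (edgeR adjusted p = 0.00772) and 4.77 ± 0.72 over 0 d (edgeR adjusted p = 0.000393), and the first of these calls was lost without 0 d A, 0 d B, 20 d A, 20 d B, 20 d C, 50 d A and 50 d B (largest edgeR adjusted p 0.039). Chr11.g12284, matched to glucan endo-1,3-beta-glucosidase 7, was abundant but not called. It had 41.8, 56.8 and 54.5 FPKM at 0 d, 80.3, 129.8 and 67.8 at 20 d and 5.22, 29.4 and 53.4 at 50 d, with 50 d spread over a wide range.

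Matches to glucan endo-1,3-beta-glucosidase 14 went in both directions. All 6 such genes were tested, and between 50 d and 0 d 4 fell and 2 rose. Chr11.g11412 (chromosome 11, bases 15823732 to 15826050, plus strand), the member with the highest mean FPKM at 0 d and over all 9 libraries together, was among those that fell, while Chr17.g25635 was above it at 20 d and 50 d. Its FPKM was 356, 147 and 137 at 0 d, 127, 132 and 150.0 at 20 d and 55.5, 50.1 and 40.7 at 50 d. All 50 d libraries lay below all others, and 0 d A was far above the other 0 d libraries. The log2 fold change at 50 d over 0 d was -2.06 ± 0.39 (edgeR adjusted p = 0.00147), and the call held without each library, 0 d A included.

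Chr3.g19472 had 80.7, 34.1 and 54.8 FPKM at 0 d, 20.8, 26.0 and 20.1 at 20 d and 20.1, 25.5 and 19.2 at 50 d, and fell, with a log2 fold change of -1.32 ± 0.34 at 50 d (edgeR adjusted p = 0.00826). Chr2.g41354 had 40.2, 26.3 and 25.9 FPKM at 0 d, 19.6, 26.1 and 16.7 at 20 d and 12.0, 14.3 and 10.6 at 50 d, and its log2 fold change at 50 d was -1.26 ± 0.31 (edgeR adjusted p = 0.00666). Its neighbour on the same strand, Chr2.g41355, had 7.54, 7.10 and 6.30 FPKM at 0 d, 4.93, 3.53 and 3.48 at 20 d and 1.52, 1.76 and 1.17 at 50 d, with a log2 fold change of -2.16 ± 0.35 at 50 d (edgeR adjusted p = 0.000568). In these 3 genes every 50 d library was below every 0 d library. The call of Chr3.g19472 was lost without 0 d A, 0 d C, 20 d A, 20 d C, 50 d A, 50 d B and 50 d C (largest edgeR adjusted p 0.0348) and that of Chr2.g41354 without 0 d A, 0 d B, 0 d C, 20 d A, 50 d A, 50 d B and 50 d C (largest edgeR adjusted p 0.0281), while that of Chr2.g41355 held without each library.

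The other 2 genes of this name were low at 0 d, lower at 20 d and highest at 50 d. Chr9.g45130 had 0.640, 0.765 and 0.515 FPKM at 0 d, 0.112, 0.0632 and 0 at 20 d and 3.74, 4.81 and 6.41 at 50 d. Chr17.g26998 had 0.881, 1.14 and 0.698 FPKM at 0 d, 0.174, 0.196 and 0.221 at 20 d and 2.32, 3.65 and 3.72 at 50 d. No stage overlapped with another in either gene. Chr9.g45130 rose on the log2 scale by 3.00 ± 0.54 at 50 d over 0 d (edgeR adjusted p = 0.0011), and over the 3 counts of 20 d its ratio was 81.9 with a 95% counting interval of 27.7 to 399 (edgeR adjusted p = 0.00123). Chr17.g26998 rose on the log2 scale by 3.98 ± 0.50 over 20 d (edgeR adjusted p = 0.00175) and by 1.88 ± 0.44 over 0 d (edgeR adjusted p = 0.00508). At 20 d against 0 d both had negative log2 fold changes, -3.23 and -2.10, with edgeR adjusted p of 0.00789 and 0.00997, but neither stage reached a mean of 1 FPKM and neither was called. The 50 d calls of Chr17.g26998 were lost over 20 d without 20 d A and 20 d C (largest edgeR adjusted p 0.0133) and over 0 d without 0 d A, 0 d B, 0 d C, 50 d B and 50 d C (largest edgeR adjusted p 0.0255).

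**Figure D3:**
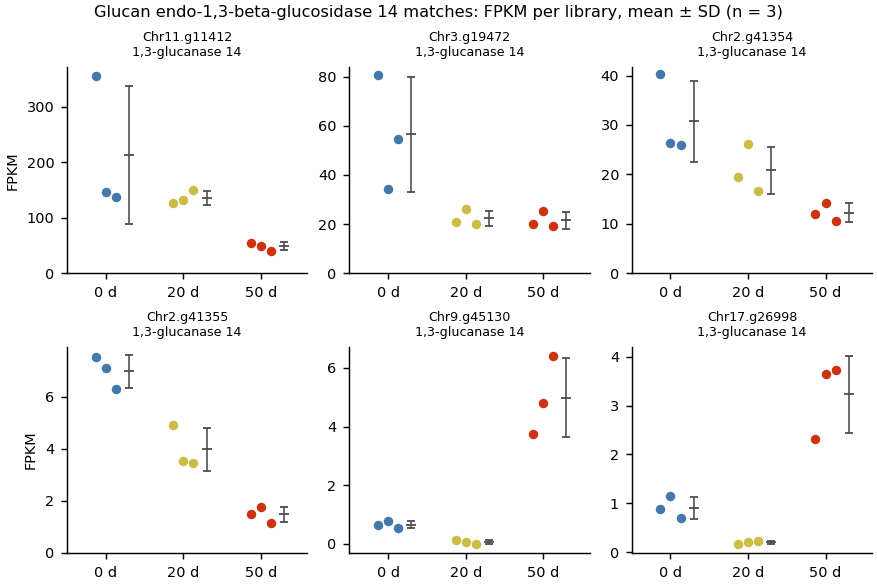
FPKM (y axis, linear, with its own range in each panel) of the 6 matches to glucan endo-1,3-beta-glucosidase 14 at 0 d, 20 d and 50 d (x axis). Points are libraries and bars are the mean ± SD of 3. In the first 4 panels the 50 d libraries are below those of 0 d, and in Chr9.g45130 and Chr17.g26998 they are above, with 20 d the lowest stage.

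Both called matches to glucan endo-1,3-beta-glucosidase 5 had their lowest mean at 20 d and their highest at 50 d. Chr2.g41929 had 0.526, 0.588 and 0.0866 FPKM at 0 d, 0, 0.170 and 0 at 20 d and 3.16, 4.75 and 2.65 at 50 d. Chr15.g02847 had 0.417, 0.520 and 0.425 FPKM at 0 d, 0.0410, 0.232 and 0.209 at 20 d and 1.42, 2.53 and 2.03 at 50 d. Chr2.g41929 rose on the log2 scale by 5.90 ± 1.0 over 20 d (edgeR adjusted p = 0.00654) and by 3.18 ± 0.80 over 0 d (edgeR adjusted p = 0.00754). Chr15.g02847 rose on the log2 scale by 3.58 ± 0.62 over 20 d (edgeR adjusted p = 0.00738) and by 2.17 ± 0.56 over 0 d (edgeR adjusted p = 0.0089). The calls over 20 d were lost for Chr2.g41929 without 0 d A, 0 d B, 20 d A, 20 d C, 50 d A and 50 d B (largest edgeR adjusted p 0.0302) and for Chr15.g02847 without 0 d A, 0 d B, 0 d C, 20 d A, 20 d C, 50 d A, 50 d B and 50 d C (largest edgeR adjusted p 0.0361). Over 0 d they were lost without 0 d A, 0 d B, 0 d C, 50 d A and 50 d B (largest edgeR adjusted p 0.032) in the first and without 0 d A, 0 d B, 0 d C, 20 d C, 50 d A, 50 d B and 50 d C (largest edgeR adjusted p 0.0429) in the second gene.

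The other 18 risers of the family had mean FPKM at 50 d between 1.29 and 15.8, and 8 of them had risen by 20 d. For the 14 with more than 3 counts at 0 d, the log2 fold change at 50 d over 0 d lay between 1.86 and 4.91. They included 4 matches to glucan endo-1,3-beta-glucosidase 1, 3 to glucosidase 4, 2 to glucosidase 11, 2 to glucosidase 13 and 2 to the probable glucanase A6, known from the anthers of Brassica. Chr14.g49449, matched to glucosidase 11 like Chr6.g51887, had 0.801, 0.831 and 1.49 FPKM at 0 d, 5.18, 5.87 and 6.33 at 20 d and 11.8, 16.3 and 9.71 at 50 d, in stages that did not overlap, and rose on the log2 scale by 2.56 ± 0.35 and 3.66 ± 0.37 over 0 d (edgeR adjusted p = 0.00072 and 3.7e-05). Chr9.g46371, matched to glucosidase 3 like Chr17.g25635, had 0.867, 1.81 and 2.88 FPKM at 0 d, 18.2, 7.37 and 16.5 at 20 d and 16.4, 9.74 and 8.47 at 50 d, and rose on the log2 scale by 2.99 ± 0.51 and 2.70 ± 0.50 (edgeR adjusted p = 0.002 and 0.00137), with 20 d B and 50 d C the lowest of their stages. Chr5.g06799, a match to glucosidase 13, had no count at 0 d and 38 at 50 d, at least 11.1-fold more (edgeR adjusted p = 0.00268). The 20 d call of Chr9.g46371 was lost without 0 d A and 0 d B (largest edgeR adjusted p 0.0133) and the call of Chr5.g06799 without 0 d A, 0 d B, 0 d C and 50 d B (largest edgeR adjusted p 0.0122).

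The X8 domain, which binds 1,3-beta-glucan, separates kinds of these proteins in the Pfam column of the table. Of 32 tested 1,3-beta-glucanases with both the glycosyl hydrolase family 17 domain and X8, 11 rose and 0 fell between 50 d and 0 d, with 1 lower at an unadjusted edgeR p under 0.05 and 0 called lower by DESeq2 or limma. Among 14 tested genes with the hydrolase domain and no X8, 6 rose and 4 fell, the 4 being the glucosidase 14 matches. Of 10 with X8 and no hydrolase domain 6 rose, and of 6 with neither domain 3 rose. By edgeR 0 fell in these last groups, while among those with neither domain 1 was lower at an unadjusted p under 0.05 and was called by DESeq2 and by limma. These 16 genes are named after a hydrolase but lack its domain in the table. Summed FPKM of the genes with both domains was 188 to 198 at 0 d, 436 to 471 at 20 d and 293 to 382 at 50 d, in 3 stages that did not overlap. Chr17.g25635 held 39.0% of that sum over all libraries. At 20 d over 0 d 5 of the 32 tested genes of this kind rose, against 7.88% of all tested genes. For genes with the hydrolase domain alone the sum was 227 to 497 at 0 d, 229 to 254 at 20 d and 145 to 193 at 50 d. Of this sum Chr11.g11412 held 54.3% over all libraries.

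Just outside the limits was Chr13.g24388, a match to glucan endo-1,3-beta-glucosidase 3 at 4.47, 4.46 and 5.56 FPKM at 0 d, 0.949, 3.80 and 0.999 at 20 d and 0.605, 0.643 and 1.78 at 50 d. Its log2 fold change at 50 d over 0 d was -2.21 ± 0.59, with an edgeR adjusted p that rounds to 0.01 but lies above the limit, while DESeq2 and limma called the fall. No domain is given for Chr13.g24388. It overlaps Chr13.g24389, a member on the opposite strand with the same match, by 3078 bases. Chr13.g24389 carries both the hydrolase domain and X8 but held 13 counts, against 1390 for Chr13.g24388. Whether the name of Chr13.g24388 stems from this overlap was not tested.

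Plasmodesmata callose-binding proteins, which stabilise callose at the channels and carry the X8 domain, were all tested, and 4 of 7 rose at both 20 d and 50 d over 0 d. Of all tested genes 7.88% rose at 20 d and 15.6% at 50 d over 0 d. Chr14.g50178, a match to PDCB1, had 7.21, 4.13 and 6.40 FPKM at 0 d, 42.2, 53.7 and 43.5 at 20 d and 47.5, 46.3 and 59.7 at 50 d. It rose on the log2 scale by 3.06 ± 0.31 at 20 d and 3.18 ± 0.32 at 50 d (edgeR adjusted p = 0.000178 and 3.62e-05). Chr14.g50176, a match to PDCB2 upstream on the same strand, had 1.15, 0.295 and 0.464 FPKM at 0 d, 11.9, 21.5 and 15.1 at 20 d and 19.2, 15.5 and 27.4 at 50 d, and rose on the log2 scale by 4.77 ± 0.52 and 5.10 ± 0.53 (edgeR adjusted p = 0.000242 and 4.35e-05). Chr16.g30896, matched to PDCB2, had 2.70, 2.08 and 2.52 FPKM at 0 d, 14.2, 23.7 and 14.3 at 20 d and 16.1, 18.4 and 34.7 at 50 d, with log2 rises of 2.92 ± 0.39 and 3.30 ± 0.40 (edgeR adjusted p = 0.000636 and 9.8e-05). In these 3 genes all later libraries were above those of 0 d, 20 d and 50 d overlapped, and 20 d B and 50 d C, low in most other members, were the highest of their stages.

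Chr9.g44760, a match to PDCB5, had 2.19, 0.660 and 0.346 FPKM at 0 d, 4.96, 10.0 and 5.52 at 20 d and 12.9, 8.21 and 8.59 at 50 d, and rose on the log2 scale by 2.78 ± 0.60 and 3.30 ± 0.61 (edgeR adjusted p = 0.00631 and 0.00125). The first of these calls was lost without 0 d B, 0 d C, 20 d A, 20 d C and 50 d B (largest edgeR adjusted p 0.0316). Chr13.g23977, a match to PDCB2, fell: it had 16.2, 10.2 and 11.5 FPKM at 0 d, 7.33, 8.04 and 5.35 at 20 d and 2.52, 3.54 and 4.12 at 50 d, and each stage lay below the one before. Its log2 fold change at 50 d over 0 d was -1.84 ± 0.34 (edgeR adjusted p = 0.00133). The most abundant, Chr6.g51127 (PDCB1), had 56.8, 31.2 and 44.1 FPKM at 0 d, 74.5, 99.8 and 85.6 at 20 d and 56.0, 79.7 and 76.6 at 50 d and was not called, with a log2 fold change of 1.06 ± 0.30 at 20 d over 0 d (edgeR adjusted p = 0.0222).

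Endoglucanases cut 1,4-beta-glucan chains, and 6 of 11 tested rose and 1 fell between 50 d and 0 d. Of all tested genes 15.6% rose and 11% fell between these stages. Chr16.g31276, matched to endoglucanase 8 (chromosome 16, bases 1215261 to 1219338, minus strand), was the only member called in all 3 comparisons. It had 0, 0.0740 and 0.0873 FPKM at 0 d, 3.34, 0.685 and 2.13 at 20 d and 21.4, 27.7 and 11.9 at 50 d, in stages that did not overlap. It rose on the log2 scale by 5.15 ± 0.80 at 20 d over 0 d, by 3.29 ± 0.57 at 50 d over 20 d and by 8.44 ± 0.82 at 50 d over 0 d (edgeR adjusted p = 0.00125, 0.00725 and 3.22e-05). Only 4 counts over 3 libraries stand behind its 0 d level. The call over 20 d was lost without 0 d A, 0 d B, 0 d C, 20 d A, 20 d C, 50 d A and 50 d B (largest edgeR adjusted p 0.0382), and that at 20 d over 0 d without 0 d A (largest edgeR adjusted p 0.0105).

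Chr6.g52083, matched to endoglucanase 6, had 0.318, 0.869 and 1.66 FPKM at 0 d, 21.6, 6.79 and 8.91 at 20 d and 23.0, 18.2 and 8.23 at 50 d, and rose on the log2 scale by 3.78 ± 0.65 and 4.17 ± 0.66 over 0 d (edgeR adjusted p = 0.00217 and 0.000518). Chr14.g49312, also matched to endoglucanase 6, had 0.0294, 0 and 0.186 FPKM at 0 d, 2.69, 0.574 and 2.10 at 20 d and 6.17, 3.26 and 1.50 at 50 d, and rose on the log2 scale by 4.69 ± 0.96 and 5.72 ± 0.98 (edgeR adjusted p = 0.00495 and 0.0008). All their later libraries were above those of 0 d, and 20 d B and 50 d C were the lowest of their stages. The 20 d calls were lost for Chr6.g52083 without 0 d A and 0 d B (largest edgeR adjusted p 0.0152) and for Chr14.g49312 without 0 d A, 0 d B, 20 d A and 20 d C (largest edgeR adjusted p 0.0353).

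Chr8.g53681, matched to endoglucanase 10, had 1.23, 2.05 and 3.06 FPKM at 0 d, 5.98, 4.87 and 3.49 at 20 d and 11.8, 6.35 and 10.6 at 50 d, each stage above the one before, and rose on the log2 scale by 2.24 ± 0.42 at 50 d over 0 d (edgeR adjusted p = 0.00135). Chr11.g13338, matched to endoglucanase 17, rose on the log2 scale by 4.29 ± 0.73 (edgeR adjusted p = 0.000805), with 0.0794, 0.336 and 0.252 FPKM at 0 d, 1.88, 0.459 and 0.639 at 20 d and 7.19, 3.48 and 2.31 at 50 d. The other riser, Chr3.g17605, also matched to endoglucanase 17, had 3 counts at 0 d and a ratio of 67.5 at 50 d over 0 d (95% counting interval 22.8 to 329.6, edgeR adjusted p = 0.00164), and its call was lost without 0 d A and 0 d B (largest edgeR adjusted p 0.0128).

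Endoglucanase 25 is the KORRIGAN type, a membrane enzyme known in Arabidopsis for its part in cellulose synthesis. Chr15.g00006, the most abundant endoglucanase, had 57.3, 73.7 and 65.6 FPKM at 0 d, 40.7, 22.5 and 36.6 at 20 d and 31.7, 27.2 and 21.0 at 50 d. All later libraries were below those of 0 d, and its log2 fold change at 50 d over 0 d was -1.24 ± 0.31 (edgeR adjusted p = 0.00802). That call was lost without 0 d A, 0 d B, 0 d C, 20 d A, 20 d C, 50 d A, 50 d B and 50 d C (largest edgeR adjusted p 0.0325). A second match, Chr8.g56299, had 6.61, 7.57 and 8.23 FPKM at 0 d, 12.5, 8.09 and 11.8 at 20 d and 14.3, 15.2 and 10.3 at 50 d, and its log2 fold change of 0.89 ± 0.30 was not called (edgeR adjusted p = 0.0286).

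By pattern of calls, the 64 called members fell into few kinds. At both 20 d and 50 d over 0 d 26 rose without a call between the later stages, and 21 were called higher at 50 d over 0 d alone. Another 9 rose at 50 d over both earlier stages, namely 5 of the 1,3-beta-glucanases, 2 beta-galactosidases and 2 beta-xylosidases. The 6 that fell did so between 50 d and 0 d only. The remaining 2 were Chr15.g04733, called at 20 d over 0 d alone, and Chr16.g31276, called in every comparison. A missing call does not show that a member stayed unchanged. At 20 d over 0 d 28 members were called higher, while 58 were higher at an unadjusted edgeR p under 0.05. Shares of all tested genes with each pattern are not given here.

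**Figure D4:**
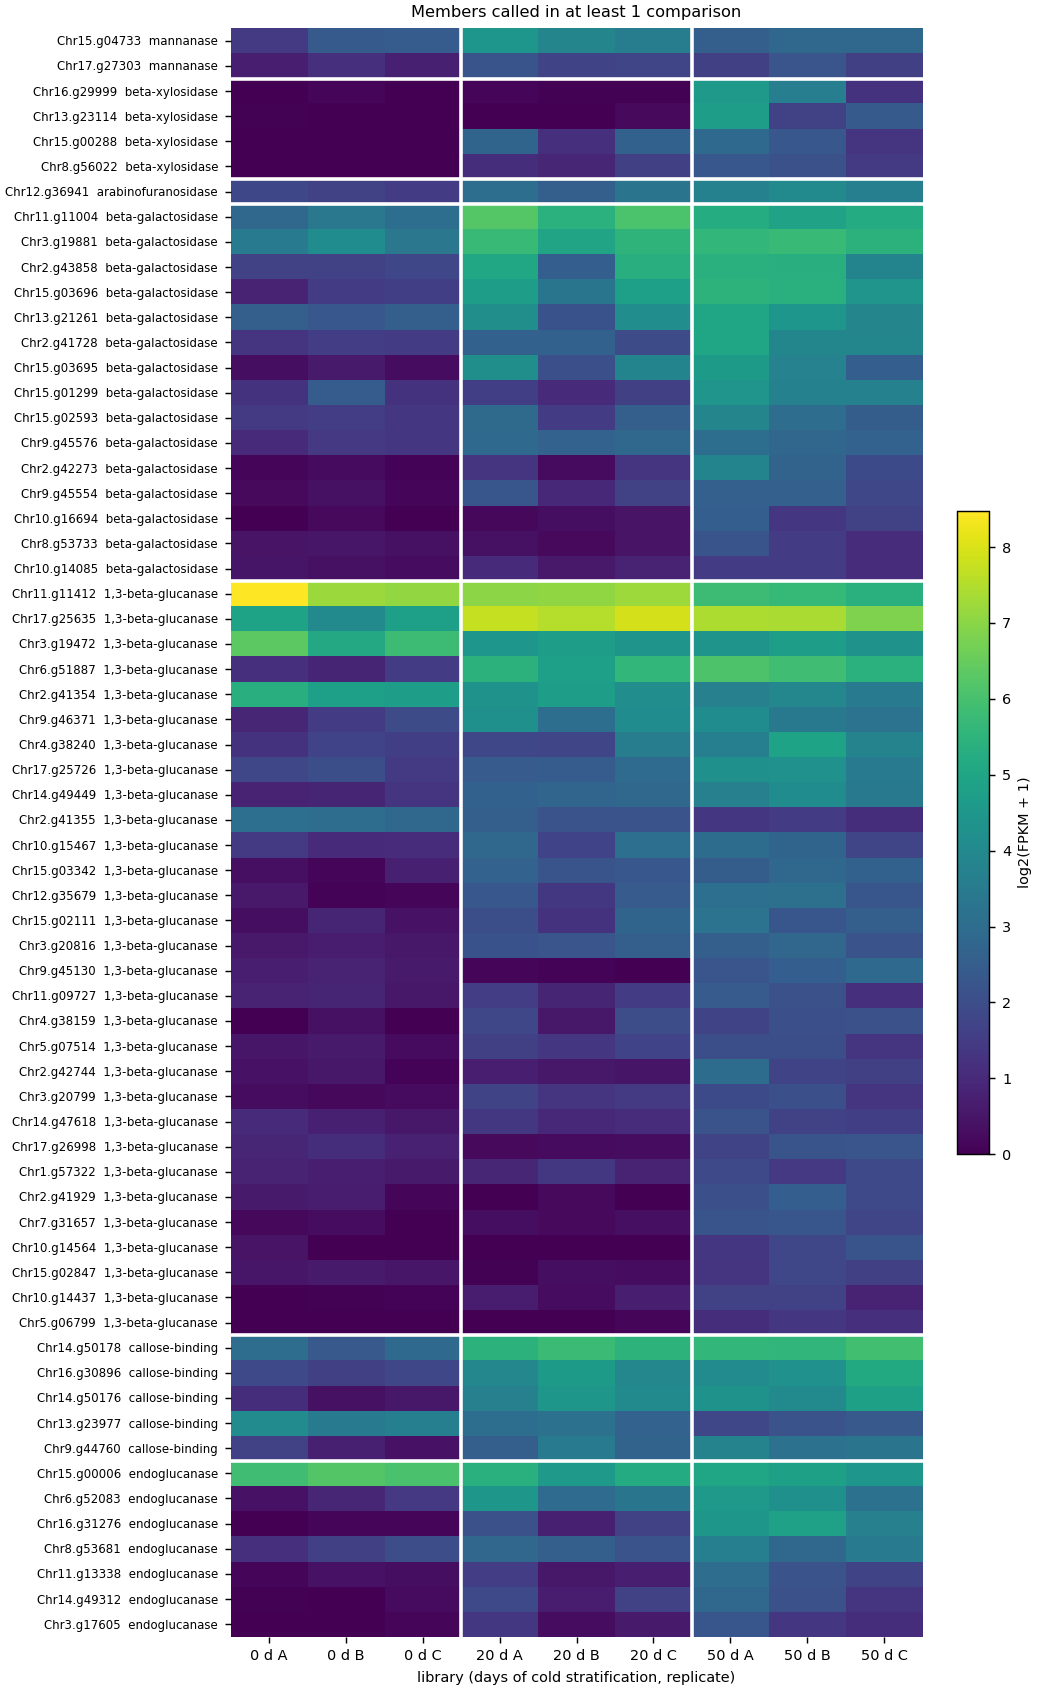
Colour gives log2(FPKM + 1) of the 64 members called in at least 1 comparison (rows, by family and then by mean FPKM) in each of the 9 libraries (columns). The 3 columns of 0 d are darker than those of 50 d in the 57 rows of members that rose at 50 d over 0 d, and 20 d B and 50 d C are often the darkest of their stages.

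Over all members the summed FPKM was 656 to 945 at 0 d, 1132 to 1324 at 20 d and 1043 to 1384 at 50 d. Callose-binding proteins summed to 52.0 to 91.7 at 0 d, 164 to 226 at 20 d and 167 to 221 at 50 d. Endoglucanases summed to 68.1 to 87.7 at 0 d, 46.7 to 93.2 at 20 d and 70.0 to 126 at 50 d, where the stages overlapped, with Chr15.g00006 holding 50.2% of the sum over all libraries. Beta-xylosidases summed to 2.95 to 8.53 at 0 d, 7.31 to 9.52 at 20 d and 10.4 to 60.3 at 50 d. Nearly all of their 0 d sum came from Chr5.g06314, the short gene without a hydrolase domain.

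**Figure D5:**
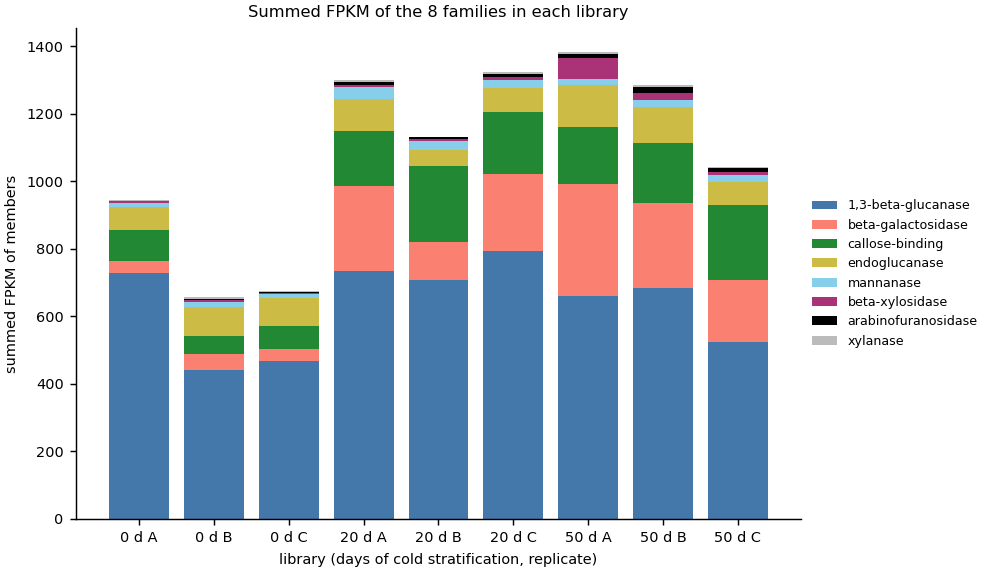
Bars give the summed FPKM (y axis) of all 221 members in each library (x axis), split by family. The 0 d bars reach 656 to 945, below those of 20 d (1132 to 1324) and 50 d (1043 to 1384), and the beta-galactosidase block is at most 48.3 in the 0 d libraries and at least 112 in the others.

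Enzymes that act beside these hydrolases on the same polymers, but lie outside the naming rule, were counted as well. Of 25 genes for alpha-galactosidases, alpha-xylosidases, other beta-D-xylosidases and beta-mannosidases, which take off side chains and end sugars, 15 were tested, and 9 rose and 0 fell at 50 d over 0 d, with a median log2 fold change of 4.17. At 20 d over 0 d 8 rose and 0 fell, and at 50 d over 20 d 0 were called by edgeR, with 4 higher at an unadjusted p under 0.05 and 1 called higher by DESeq2 and by limma. Over 0 d none was lower by DESeq2, by limma or at an unadjusted edgeR p under 0.05. Both genes found as beta-mannosidases are mannosylglycoprotein endo-beta-mannosidases, which act on sugar chains of glycoproteins. Of 37 genes for enzymes that make mannan, xylan and callose, 26 were tested, and 7 rose and 0 fell at 50 d over 0 d, with a median of 0.64. DESeq2 called 8 of the 26 higher and limma 4, with 0 for xylan by limma. Another 2 were lower at an unadjusted edgeR p under 0.05, and DESeq2 and limma each called 1 lower. The 7 edgeR calls were 3 of 5 tested for mannan, 2 of 7 for xylan and 2 of 14 for callose. Against these, 15.6% of all tested genes rose. The 3 lists differed in their median log2 fold change at 50 d over 0 d. It was 6.16 for mannan, with 1 gene without counts in a stage set at its bound, -0.35 for xylan and 0.64 for callose.

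Some members lie near others of their family in the genome. Runs of genes of 1 family with starts within 100 kb numbered 18 and held 51 of the 221 members, of which 10 were tested and 6 called. Over all members 64 of 114 tested were called, and of all tested genes 27.8%. The sources used here do not say how reads with several matching genes were treated, and near-identical copies in such runs can share reads. The 107 untested members held at most 108 counts each over the 9 libraries.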

How the data were processed

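RNA from callery pear seeds after 0, 20 and 50 d of cold stratification was sequenced in 3 replicates per stage. Per the study's methods and the submitters' processing notes, the authors aligned reads with HISAT2 to the Pyrus betuleafolia genome, and neither these notes nor those methods name the counting tool, its treatment of strand and of reads that map to several genes, or the versions. The deposited table holds, per gene and library, the authors' whole-number read counts and their FPKM, together with 15 numeric columns of the authors' stage means, fold changes and p-values that were not used. Counts were 13893019 to 16228340 per library, which limits precision for low genes. Bounds and intervals cover counting error only. Libraries were assigned to stages from their labels.

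Counts were fitted with edgeR 4.0.16 under R 4.3.3 (TMM factors, filterByExpr, quasi-likelihood test), with the 9 libraries in 1 fit and no factor but stage, p-values were adjusted by Benjamini-Hochberg over 28339 genes, and calls used the limits given above, with an adjusted p of at most 0.01. DESeq2 1.42.0 and limma 3.58.1 served for alternatives, and Python 3.11.15 with pandas 2.3.3 for summaries. Simulated data were used to test the fits. With 3 pools of seeds per stage, p-values measure the spread between these pools. Gene names come from Swissprot matches in the table. Named were, in each family, all called members or the 6 of highest stage mean FPKM, the member of highest mean FPKM, all members called at 50 d over 20 d, and the 5 largest rises and falls of each comparison. Chr2.g42273, Chr14.g49449, Chr9.g46371, Chr5.g06799, Chr3.g17605, Chr5.g06314, Chr8.g56299, Chr4.g40233, Chr13.g24388 and Chr13.g24389 were named after their values were seen. The members, lists and tests were chosen with earlier results of these data known. No genome sequence was used here.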

Additional observations from a re-analysis of the deposited data

How the results depend on the processing

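Against 28 (20 d over 0 d), 10 (50 d over 20 d), 63 (50 d over 0 d) and 64 (any comparison) members called, requiring both stages to reach a mean FPKM of 1, which removes genes near 0 in 1 stage, gave 14, 2, 27 and 29. An adjusted p of at most 0.05 gave 45 at 20 d over 0 d and 18 at 50 d over 20 d. For 50 d over 20 d the count was 17 with DESeq2, 16 without the low-count filter, 3 with edgeR's glmTreat (log2 fold change limit of 1) and 0 by edgeR with only these 2 stages in the fit, where 42 members had an unadjusted p under 0.05 (the cause was not tested). Leaving out each library in turn gave 15 to 37, 1 to 10, 41 to 68 and 42 to 69. With the letter as a replicate block 19, 1, 51 and 51 were called. Same-letter libraries deviated from their stage means with correlations of -0.561 to 0.552, and libraries of different letters with -0.62 to 0.723. Deviations within a stage sum to 0, so these values cannot decide whether the letters pair libraries. The main fit used the letters only as names of replicates. RLE size factors, no FPKM limit, limma on FPKM and removal of a gene length trend kept each count within 1.5 times. Against 0.148 at 20 d and 0.157 at 50 d over 0 d, the median log2 fold change of all genes moved by over 0.1 with the length trend removed, to 0.000 and 0.008, and at 20 d with limma, to 0.029 (pseudocount of 1) and 0.038 (0.1). No named gene changed the direction of its call under any alternative. Depth limits genes near 0 at 0 d, whose folds are bounds or ratios with wide counting intervals.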
